A study of Mus musculus with 6 samples.

Results

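The genes described here encode the protein subunits of the mitochondrial ribosome. Members were the genes on the array whose name starts with Mrpl (large subunit) or Mrps (small subunit) followed by a number. There were 77 of them among 21558 genes tested, 48 of the large subunit and 29 of the small subunit by name, measured by 109 probes. Of these probes 108 passed the filter on dim signal, which asked for a signal well above background on 3 or more arrays, and 107 were well above background on all 6 arrays. The probe that did not pass was a second probe of Mrpl21, so every member was tested.

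The mitochondrial ribosome translates the few messages of mitochondrial DNA, all of which encode subunits of the respiratory chain and the ATP synthase. Its ribosomal RNAs are made inside the organelle, whereas its proteins are encoded in the nucleus, on many chromosomes, and imported. Some of the proteins have counterparts in bacterial ribosomes, and the others are found only in mitochondria. Mrps18a and Mrps30 carry small-subunit names but sit in the large subunit in solved structures, and Mrps36 is a part of the 2-oxoglutarate dehydrogenase complex.

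RNA was taken from mouse embryonic stem (ES) cells and labelled for one-colour Agilent arrays, with 3 arrays of TKO cells and 3 of WT cells. The TKO cells are labelled as knockouts of Tet1, Tet2 and Tet3, the dioxygenases that oxidise 5-methylcytosine in DNA, and were made from the WT line, BJ FF2 ES. Both were grown in 2i conditions on inactivated feeder cells from mouse embryos. Feeders were taken out and the cells plated on matrigel ahead of harvest, with 1 dish per sample. The labels give neither the exons altered nor the number of clones, so the p-values measure only the spread between dishes of 1 WT line and of the cells derived from it.

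Every level below is a log2 processed signal from which that array's 75th percentile was subtracted, and every difference is TKO minus WT on that log2 scale. A gene was called when its limma p-value, adjusted by Benjamini-Hochberg over all 21558 genes, was under 0.05. Tet1 and Tet2 were lower in TKO cells, with differences of -1.37 and -2.93, whereas Tet3 was dim in both groups, with a difference of -0.24 and an adjusted p of 0.0842. TKO replicates 2 and 3 lay in the second row of the slide, and TKO replicate 1 and the 3 WT arrays in the first. All 8 ES cell markers examined, Pou5f1, Sox2 and Nanog among them, were well above background on every array, and 2 of them were higher and 4 lower in TKO cells (75% called, where 59.7% of all genes were). Their summed signal was 363.2 to 368.7 in TKO cells and 422.7 to 448.5 in WT cells, in units of the 75th percentile. Of 12 fibroblast markers, which feeder cells express, 11 were tested. Of these 8 were higher and 1, Pdgfrb (-2.26), was lower in TKO cells (81.8% called). The summed signal of all 12 was 28.83 to 32.08 in TKO cells and 23.39 to 23.94 in WT cells. Col1a1, which lies on chromosome 11, Col1a2 and Thy1 were the brightest of those tested. The part of these markers in the differences below was not tested. In RNA of whole dishes, a change in the number of cells of a type and a change in RNA per cell cannot be told apart.

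Members moved in both directions and by small amounts. Of the 77 genes, 50 were called (64.9%), against a background of 59.7% of all genes tested. Of these, 23 were higher in TKO cells and 27 lower, where 30.0% of all genes tested were higher and 29.7% lower. In the large subunit 12 genes were higher, 17 lower and 19 not called, with a median difference of -0.03. In the small subunit 11 were higher, 10 lower and 8 not called, with a median of -0.07. Both medians are close to that of all genes, -0.01, and both move when 1 array is left out: the large-subunit median was -0.05 without WT replicate 1, and the small-subunit median was -0.03 without TKO replicate 1 and -0.04 without TKO replicate 2. With the members placed by structure, the large subunit held 14 higher and 17 lower of 50, and the small subunit 9 higher and 9 lower of 26. Of the 45 members classed as having bacterial counterparts 13 were higher and 15 lower, and of the 31 classed as mitochondria-specific 10 were higher and 11 lower. Centring arrays on their medians moved the median of all genes to -0.21 and gave 3826 higher and 9486 lower genes in all, with 8 higher and 27 lower in the large subunit and 4 higher and 15 lower in the small subunit. With array row as a block, 11 large-subunit genes were higher and 14 lower, and 11 small-subunit genes were higher and 7 lower. Within the first row alone, which leaves TKO replicate 1 against the 3 WT arrays, these counts were 11 and 7 for the large subunit and 9 and 5 for the small subunit. In that row the TKO group gives no spread of its own, and its lone array is assumed to vary like the WT arrays.

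The differences were spread less widely than those of all genes, as were those of cytosolic ribosomal protein genes. A difference of at least 2-fold with a call was seen for 2 members, Mrps24 and Mrps9, which is 2.6% of them, against 13.7% of all genes tested and 11.1% of the genes well above background on all 6 arrays. The standard deviation of the differences over the members was 0.376, against 0.704 over genes well above background on all arrays. TKO and WT values did not overlap for 59 members (76.6%), against 67.6% of all genes tested. Genes for cytosolic ribosomal proteins gave 33 calls among 102 genes (32.4%, against 59.7% of all genes), 7 higher and 26 lower, with a median of -0.06. Of them 2.94% were called at 2-fold or more, and their median absolute difference was 0.0914, against 0.184 over the 77 members. By standard deviation the cytosolic genes were spread more widely than the members, at 0.494, with differences from -3.39 to 1.06.

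**Figure D1:**
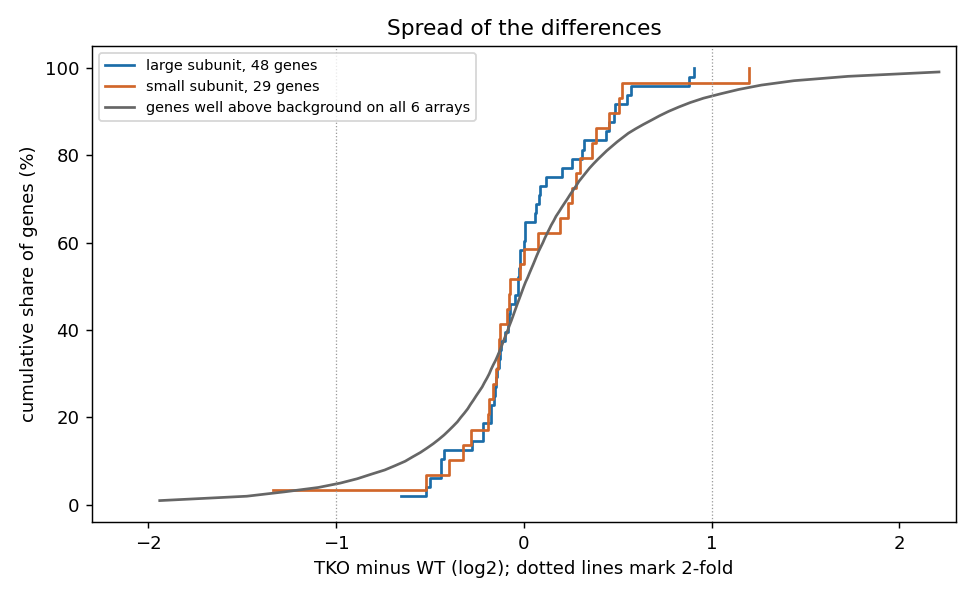
Cumulative share of genes (vertical axis, percent) against the TKO minus WT difference (horizontal axis, log2) for the 48 large-subunit genes, the 29 small-subunit genes and the genes well above background on all 6 arrays. The members' curves are steeper than that of the other genes, and only Mrps9 and Mrps24 lie beyond the dotted lines at 2-fold.

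The largest rises were found on chromosome 11. All 10 members located there were higher in TKO cells, where 57.5% of the 1616 tested genes of that chromosome were higher. Their differences ran from 0.24 to 1.20 with a median of 0.54, against a median of 0.34 over all genes of chromosome 11. Of the 10 genes, 9 lay above the median of their chromosome, and 9 above the median of the genes within 5 Mb of them. What part the shift of the whole chromosome has in the members' values was not tested.

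Mrps24, a small-subunit protein whose bacterial counterpart lies where messenger RNA enters the ribosome, had levels of 5.26, 5.29 and 5.33 in TKO cells, against 4.09, 4.06 and 4.13 in WT cells. Every TKO array was above every WT array by more than 1 log2 unit, and the difference was 1.20 ± 0.04 (SE, n = 3 each, limma adjusted p = 7.91e-06), or 2.29-fold. Its probe lies at chr11:5604421-5604480 on the minus strand of mouse build mm9, and the median of the genes within 5 Mb was 0.40. Mrpl55, a large-subunit protein found in animal mitochondria, had levels of 6.09, 6.19 and 6.11 in TKO cells, against 5.25, 5.21 and 5.21 in WT cells. The groups did not overlap, with a difference of 0.90 ± 0.04 (SE, n = 3 each, limma adjusted p = 2.28e-05). Mrpl38, a mitochondria-specific protein of the central protuberance, had levels of 3.03, 3.00 and 3.03 in TKO cells, against 2.01, 2.21 and 2.19 in WT cells. WT replicate 1 was the lowest array, and the difference was 0.88 ± 0.06 (SE, n = 3 each, limma adjusted p = 0.000102).

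The other chromosome 11 members rose by less. Mrpl12 and Mrpl10 form the stalk that receives translation factors. Mrpl12 had levels of 6.01, 6.03 and 6.11 in TKO cells, against 5.47, 5.41 and 5.56 in WT cells, a difference of 0.57 ± 0.05 (SE, n = 3 each, limma adjusted p = 0.000347). Mrpl10 had levels of 3.23, 3.27 and 3.26 in TKO cells, against 2.80, 2.84 and 2.80 in WT cells, a difference of 0.44 ± 0.03 (SE, n = 3 each, limma adjusted p = 0.000163). In both genes the lowest TKO array lay above the highest WT array. Mrpl45 and Mrpl22 belong to the polypeptide exit, where Mrpl45 also holds the ribosome to the inner membrane. Mrpl45 differed by 0.55 and Mrpl22 by 0.48. Mrpl27, whose bacterial counterpart reaches towards the peptidyl transferase centre, had levels of 4.63, 4.59 and 4.51 in TKO cells, against 4.10, 4.06 and 4.12 in WT cells, with a difference of 0.49. Mrps23, a mitochondria-specific protein of the small subunit, differed by 0.53. Mrps7, a protein of the small subunit's head, had the smallest difference of the 10, 0.24, and lay below the median of its chromosome. It was no longer called when arrays were centred on their medians (0.04) or in the first array row alone (0.17).

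**Figure D2:**
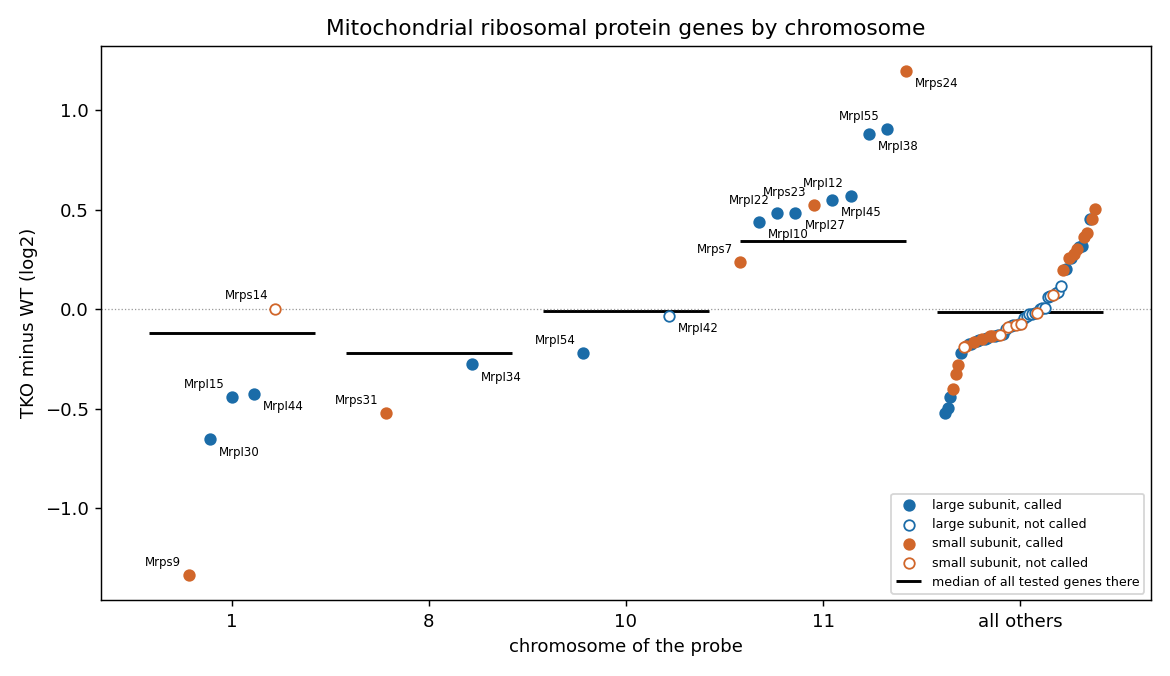
TKO minus WT difference (vertical axis, log2) of each member by the chromosome of its probe (horizontal axis), with filled points for called genes and black lines for the median of all tested genes of that chromosome. All 10 genes of chromosome 11 lie above 0, and 4 of 5 on chromosome 1 and both on chromosome 8 are called lower.

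The largest falls, those of Mrps9 and Mrpl30, were found on chromosome 1. Of its 5 members 4 were lower in TKO cells, where 39.9% of the tested genes of chromosome 1 were lower and their median difference was -0.12. Mrps9, a protein of the small subunit's head whose bacterial counterpart touches the transfer RNA in the peptidyl site, had levels of 2.54, 2.60 and 2.65 in TKO cells, against 3.97, 3.94 and 3.89 in WT cells. Each TKO array was below each WT array by more than 1 log2 unit, and the difference was -1.34 ± 0.05 (SE, n = 3 each, limma adjusted p = 8.7e-06), so that TKO cells had 39.6% of the signal in WT cells. The median of the genes within 5 Mb of it was -0.11. Mrpl30, a large-subunit protein with a bacterial counterpart, had levels of 4.75, 4.71 and 4.67 in TKO cells, against 5.37, 5.37 and 5.36 in WT cells. The groups did not overlap, with a difference of -0.65 ± 0.04 (SE, n = 3 each, limma adjusted p = 4.52e-05), and its second probe differed by -0.63.

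Mrpl15, another large-subunit protein with a bacterial counterpart, had levels of 5.25, 5.19 and 5.13 in TKO cells, against 5.68, 5.59 and 5.62 in WT cells, and a difference of -0.44 ± 0.05 (SE, n = 3 each, limma adjusted p = 0.000544). Mrpl44, a mitochondria-specific protein with a ribonuclease III fold, had levels of 2.47, 2.50 and 2.52 in TKO cells, against 2.93, 2.87 and 2.98 in WT cells, and a difference of -0.43 ± 0.04 (SE, n = 3 each, limma adjusted p = 0.000456). All TKO values of both genes were below all WT values. Mrps14, the fifth member on chromosome 1, had a difference of 0.00 ± 0.03 and overlapping groups.

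Both members on chromosome 8 were lower, where 49.2% of the tested genes were lower and the median was -0.22. Mrps31, a mitochondria-specific small-subunit protein, had levels of 4.29, 4.13 and 4.11 in TKO cells, against 4.76, 4.70 and 4.65 in WT cells. TKO replicate 1 was the highest TKO array but lay below every WT array, and the difference was -0.52 ± 0.06 (SE, n = 3 each, limma adjusted p = 0.000883). Mrpl34, a small basic large-subunit protein with a bacterial counterpart, had levels of 3.91, 3.89 and 3.88 in TKO cells, against 4.11, 4.16 and 4.24 in WT cells, with a difference of -0.28 ± 0.05 (SE, n = 3 each, limma adjusted p = 0.00342). Its probe was printed in 10 spots per array, and the standard deviation between spots was at most 0.0608 on any array. It was not called in the first array row alone, where its difference was -0.26. Of the 7 members on chromosomes 1 and 8, 6 were below the median of their chromosome, and 6 below the median of the genes within 5 Mb.

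On chromosome 10, where 28.6% of genes were lower, Mrpl54 was lower with a difference of -0.22 ± 0.05 (SE, n = 3 each, limma adjusted p = 0.008) and Mrpl42 was not called, at -0.03. Both encode mitochondria-specific proteins of the large subunit. Subtracting the median of each gene's chromosome lowered the standard deviation over the 77 members to 0.297.

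The 58 members on the remaining chromosomes had differences between -0.52 and 0.50, with a median of -0.07. Of them 13 were higher and 20 lower, where 28.7% and 29.1% of the tested genes of the same chromosomes were higher and lower. Among the falls, Mrpl3, which lies near the peptidyl transferase centre, had levels of 3.79, 3.87 and 3.85 in TKO cells, against 4.35, 4.31 and 4.42 in WT cells. The groups stood apart, with a difference of -0.52 ± 0.05 (SE, n = 3 each, limma adjusted p = 0.000246). Mrpl52, a mitochondria-specific large-subunit protein, had levels of 5.58, 5.56 and 5.50 in TKO cells, against 6.08, 6.05 and 6.00 in WT cells, and a difference of -0.50 ± 0.04 (SE, n = 3 each, limma adjusted p = 0.000194). Mrpl32, a zinc-binding protein that is trimmed by a mitochondrial protease before it joins the large subunit, had levels of 3.00, 2.95 and 3.01 in TKO cells, against 3.49, 3.38 and 3.42 in WT cells, and a difference of -0.44 ± 0.04 (SE, n = 3 each, limma adjusted p = 0.000417). No TKO array reached the WT range in either gene. The other lower large-subunit genes were Mrpl41, Mrpl50, Mrpl13, Mrpl18, Mrpl14, Mrpl49, Mrpl51, Mrpl35 and Mrpl17, with differences between -0.22 and -0.12. Mrpl49 kept its direction and call in only 9 of 16 alternatives.

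In the small subunit, Mrps26, which is mitochondria-specific, had levels of 4.83, 4.86 and 4.83 in TKO cells, against 5.23, 5.23 and 5.27 in WT cells, and a difference of -0.40 ± 0.03 (SE, n = 3 each, limma adjusted p = 0.000223). Mrps6 and Mrps2, which have bacterial counterparts, were lower, with differences of -0.32 and -0.28. Mrps25, Mrps18c, Mrps22, Mrps16 and, by name only, Mrps36 were lower with differences between -0.18 and -0.13. Mrps16 was close to the threshold, with a limma adjusted p of 0.0458, or 0.054 in the fit over all probes.

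Among the rises outside the 4 chromosomes, Mrps18a had levels of 3.65, 3.67 and 3.71 in TKO cells, against 3.18, 3.14 and 3.20 in WT cells. Its groups did not overlap, and the difference was 0.50 ± 0.04 (SE, n = 3 each, limma adjusted p = 0.000139). Mrps12, a protein of the decoding centre, had levels of 5.30, 5.30 and 5.31 in TKO cells, against 4.80, 4.86 and 4.90 in WT cells, and a difference of 0.45 ± 0.04 (SE, n = 3 each, limma adjusted p = 0.000246). Mrps17, which has a bacterial counterpart, had levels of 3.88, 3.89 and 3.92 in TKO cells, against 3.50, 3.52 and 3.53 in WT cells, and a difference of 0.38 ± 0.03 (SE, n = 3 each, limma adjusted p = 0.000247). All 3 TKO arrays were above the WT arrays in both genes, although Mrps17 was not called when arrays were centred on their medians (0.18, adjusted p = 0.0641). The other higher genes with small-subunit names were Mrps34, Mrps27, Mrps30, Mrps15 and Mrps33, with differences between 0.20 and 0.36. In the large subunit Mrpl9 had a difference of 0.45, and Mrpl16, Mrpl33, Mrpl48 and Mrpl20 differed by 0.20 to 0.32. Mrpl20 was close to the threshold, with a limma adjusted p of 0.0487, or 0.0542 in the fit over all probes. Its second probe differed by 0.03 and was not called.

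**Figure D3:**
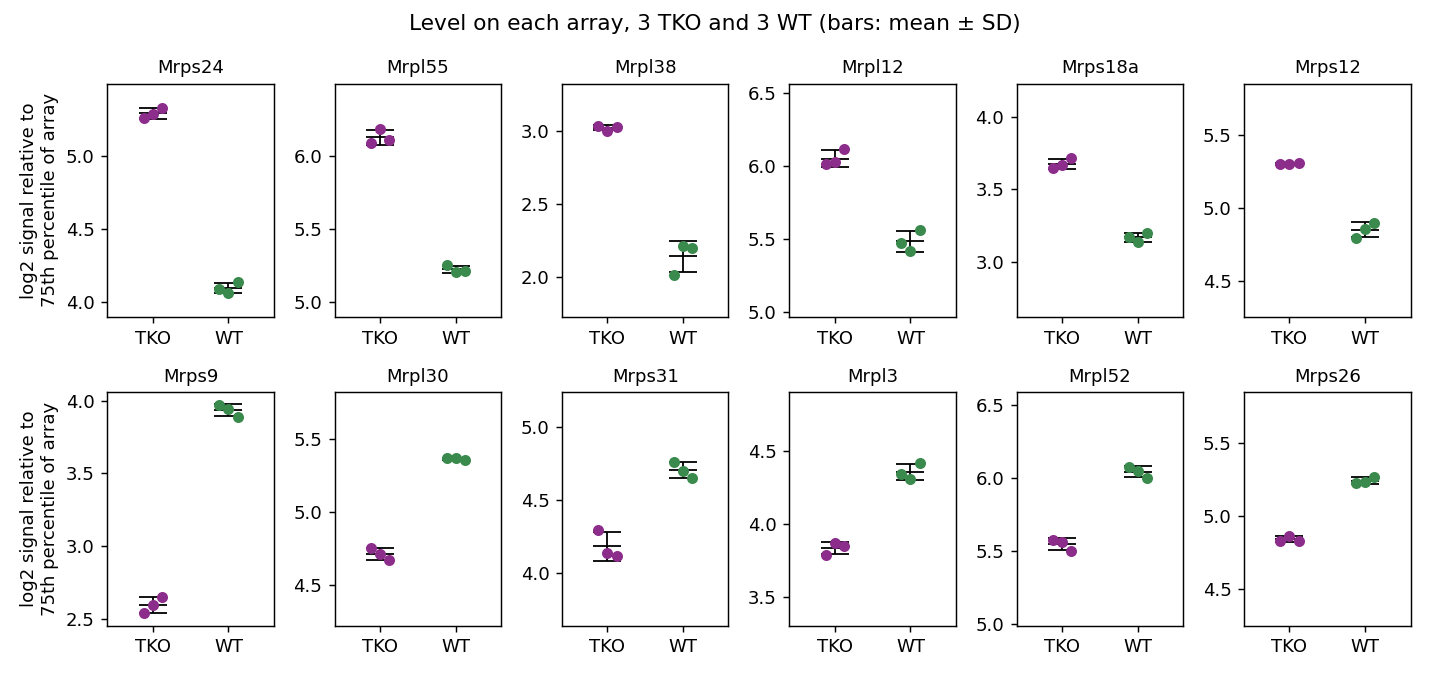
Level on each of 3 TKO and 3 WT arrays (vertical axis, log2 signal relative to the 75th percentile of the array) for 12 members, with bars for the mean ± SD and the same span of values in each panel. The upper row holds genes that were higher in TKO cells, from Mrps24 to Mrps12, and the lower row genes that were lower, from Mrps9 to Mrps26, and in none of the 12 do the groups overlap.

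The 25 members outside these chromosomes that were not called were Mrpl1, Mrpl2, Mrpl4, Mrpl11, Mrpl19, Mrpl21, Mrpl23, Mrpl24, Mrpl28, Mrpl36, Mrpl37, Mrpl39, Mrpl40, Mrpl43, Mrpl46, Mrpl47, Mrpl53, Mrpl57, Mrps5, Mrps10, Mrps11, Mrps18b, Mrps21, Mrps28 and Mrps35. Their differences lay between -0.19 (Mrps11) and 0.12 (Mrpl19).

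Several members had more than 1 probe, and for some of them the probes did not give the same answer. Of 27 members with more than 1 probe that passed the filter, 18 had probes within 0.2 log2 units of each other. The other 50 members, Mrps24, Mrps9, Mrpl55 and Mrpl38 among them, rest on 1 such probe, and no second probe checks them. Mrps26 was the closest pair, at -0.40 for both probes. In 7 members the probes had differences of opposite sign with at least 1 of them called, and in 3 of these, Mrpl9, Mrps25 and Mrpl49, probes were called in both directions. The brightest probe stands for the gene in the counts above.

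The first 30 bases of the 60-base probes are shown for 5 members with opposite signs and for Mrps7, because they mark which stretch of each gene's transcripts was measured. They are read from 5′ to 3′ as the array files give them, with positions on mm9, and the probe that stands for the gene comes first in each pair.
Mrpl9 (chr3:94252112-94252171, plus strand): cctagccactattctgacagttgttttatt
Mrpl9, second probe (chr3:94254157-94254216, plus strand): ttgatcctgtgtggttttcaacagccacaa
Mrpl47 (chr3:32629104-32630111, minus strand): ccaatgccaagtccggagcgcttagaaaag
Mrpl47, higher probe (chr3:32626187-32626246, minus strand): agtcagtttggaaatgctgttctcactagt
Mrpl39 (chr16:84718547-84718606, minus strand): gacagagaacaccgaatccacccagtagtg
Mrpl39, second probe (chr16:84717975-84718034, minus strand): gttctgttagatgctaccagatgctagcct
Mrps25 (chr6:92124834-92124893, minus strand): atgggatgaaggccagggttgccagctgct
Mrps25, second probe (chr6:92119530-92119589, minus strand): ctacagagattaaaatagactcgaactata
Mrpl49 (chr19:6054680-6054739, minus strand): ttaagtacttaggatgaaagggctttgaga
Mrpl49, second probe (chr19:6053882-6053941, minus strand): tcaccagccacatgtccaacccaccattaa
Mrps7 (chr11:115468609-115468668, plus strand): aataaatgttgagctcctgctgtcctgttg
Mrps7, second probe (chr11:115468668-115468727, plus strand): gctgtttgtaatgcagtcttccattctgtg

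Mrpl9 encodes a large-subunit protein with a bacterial counterpart. Its brighter probe had levels of 1.97, 1.92 and 1.94 in TKO cells, against 1.55, 1.41 and 1.51 in WT cells, with a difference of 0.45 ± 0.05 (SE, n = 3 each, limma adjusted p = 0.000459). The second probe, designed on a predicted transcript and placed 2045 bases further on, had levels of -5.09, -5.14 and -4.18 in TKO cells and -3.20, -3.39 and -3.46 in WT cells. All TKO arrays were below the WT arrays there, with a difference of -1.45 ± 0.27 (SE, n = 3 each, limma adjusted p over all probes = 0.00601), and 2 of the 3 TKO arrays were well above background. With normexp background correction the difference was -0.46. The mean of both probes gave -0.50.

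Mrpl47, a protein at the tunnel exit with a bacterial counterpart, had 4 probes. Its brightest differed by -0.02 and spans a splice junction, since its 60 bases cover 1008 positions of the genome. Another of the 4 differed by 1.52 ± 0.17 (SE, n = 3 each), with levels of -3.05, -3.17 and -3.32 in TKO cells and -4.63, -5.05 and -4.44 in WT cells. It was well above background on all 6 arrays and its groups did not overlap, but with normexp background correction its difference was 0.39. The 2 remaining probes differed by -0.08 and -0.15 and were not called, and the second of these changed sign without TKO replicate 2 (0.04).

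Mrpl39, a mitochondria-specific large-subunit protein, differed by -0.08 at its brighter probe, where the groups overlapped. At its other probe, 572 bases away, the levels were -1.66, -1.71 and -1.68 in TKO cells and -2.73, -2.61 and -2.41 in WT cells, a difference of 0.90, or 0.50 with normexp background correction. Mrps25 differed by -0.18 and 0.40 at probes 5304 bases apart, of which the second lost its call under 11 of 15 alternatives, among them each array left out in turn except TKO replicate 1. Mrpl49 differed by -0.15 and 0.26 at probes 798 bases apart, of which the first kept its direction and call in 9 of 16 alternatives. Its call was lost without TKO replicate 3, without WT replicate 3, with array row as a block, in the first row alone, with a replicate block and with no filter on dim probes, and the mean of both probes gave 0.058. Mrpl41 was lower at its brighter probe (-0.22) and not called at the other (0.42, and 0.16 without TKO replicate 3). Mrps14 had probes at 0.00, 0.24 and -0.07, of which the second was called, though not with median centring (0.035) or in the first row alone (0.26).

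Probes could also agree in direction and differ in size. The 2 probes of Mrps7 start 59 bases apart and share 1 genome position, yet differed by 0.24 and 0.78. Levels at the second of them were 2.22, 2.27 and 2.35 in TKO cells and 1.46, 1.50 and 1.55 in WT cells. Both probes of Mrps23 were called higher, at 0.53 and 0.28.

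**Figure D4:**
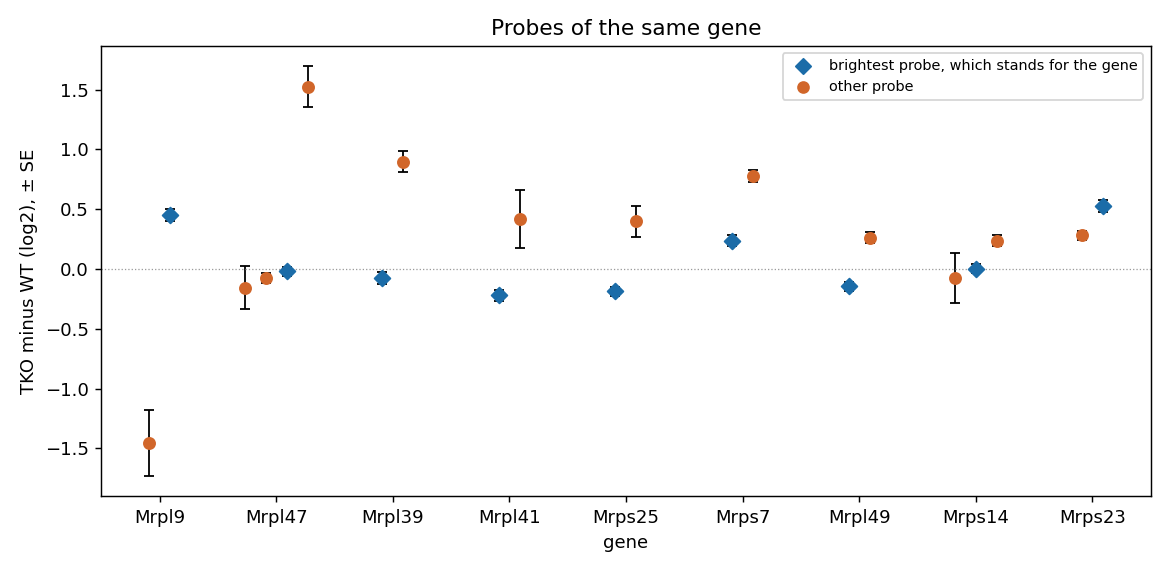
TKO minus WT difference ± SE (vertical axis, log2) of each probe that passed the filter, for 9 members (horizontal axis) whose probes differ most, with diamonds for the brightest probe of a gene. Mrpl9 has probes at 0.45 and -1.45, and Mrpl47 has 1 probe at 1.52 beside 3 near 0.

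The promoters of the members were compared because nuclear genes for mitochondrial proteins share a few activators. NRF-1 and GABP are activators of such genes, and YY1 binds near many start sites. RefSeq promoter windows of 300 bases on GRCm38.p6, 250 before and 50 after a transcript's start, were matched by symbol for 68 of the 77 members. A search on both strands found the NRF-1 letters GCGCANGCG in 16 members (23.5%), the GABP or ETS letters CCGGAAG in 25 (36.8%) and the YY1 letters ATGGCGG in 13 (19.1%). Among the 10363 genes with a window that were well above background on all 6 arrays, the shares were 14.2%, 18.6% and 8.86%, and over all 27025 genes with a window they were 7.03%, 9.93% and 4.69%. Hits of different motifs overlapped in 0 of the 74 windows of members. A match is a stretch of letters and not a measured binding site.

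The motif counts were then split by call. At least 1 of the 3 motifs was found in 14 of 21 members that were higher, 18 of 24 that were lower and 10 of 23 that were not called. Over the genes well above background on all 6 arrays the share was 35%, and over all genes with a window 18.5%. Those genes were not split by call, so whether the split is particular to the members was not tested. Members with the NRF-1 letters had a median difference of -0.11 and those without -0.02, with the GABP letters the medians were -0.08 and -0.03, and with the YY1 letters they were 0.06 and -0.03. The windows of members held a median of 21 CpG dinucleotides, the sites that DNA methylation and the Tet enzymes act on, against 20 among the genes well above background on all arrays. The median was 20.2 for members that were higher, 22 for those that were lower and 21 for those not called. By position it was 24 for the 9 matched members on chromosome 11 and 13.5 for the 6 on chromosomes 1 and 8.

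The windows of the largest movers, and of a pair of members whose windows overlap, are printed in lower case with any of the 3 motifs in capitals, each read along its gene's strand on GRCm38.p6.
Mrps24 (chr11:5707652-5707951, minus strand): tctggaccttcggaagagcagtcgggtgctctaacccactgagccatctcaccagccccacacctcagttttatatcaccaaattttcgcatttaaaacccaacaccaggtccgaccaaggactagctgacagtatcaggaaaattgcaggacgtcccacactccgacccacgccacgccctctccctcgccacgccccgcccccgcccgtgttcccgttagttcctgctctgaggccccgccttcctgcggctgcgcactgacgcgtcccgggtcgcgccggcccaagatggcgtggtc
Mrpl55 (chr11:59202236-59202535, plus strand): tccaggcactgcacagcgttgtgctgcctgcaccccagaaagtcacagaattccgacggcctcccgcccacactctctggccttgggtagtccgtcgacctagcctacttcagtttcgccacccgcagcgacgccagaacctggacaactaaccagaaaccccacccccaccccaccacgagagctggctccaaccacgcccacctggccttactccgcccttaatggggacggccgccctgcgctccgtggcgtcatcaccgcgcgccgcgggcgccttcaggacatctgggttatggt
Mrps9 (chr1:42850983-42851282, plus strand): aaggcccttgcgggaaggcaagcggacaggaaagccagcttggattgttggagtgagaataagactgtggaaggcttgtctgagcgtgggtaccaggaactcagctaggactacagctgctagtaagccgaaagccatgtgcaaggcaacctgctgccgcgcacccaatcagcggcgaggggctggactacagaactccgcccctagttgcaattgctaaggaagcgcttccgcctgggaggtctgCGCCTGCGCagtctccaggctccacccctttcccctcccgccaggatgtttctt
Mrpl30 (chr1:37890227-37890526, plus strand): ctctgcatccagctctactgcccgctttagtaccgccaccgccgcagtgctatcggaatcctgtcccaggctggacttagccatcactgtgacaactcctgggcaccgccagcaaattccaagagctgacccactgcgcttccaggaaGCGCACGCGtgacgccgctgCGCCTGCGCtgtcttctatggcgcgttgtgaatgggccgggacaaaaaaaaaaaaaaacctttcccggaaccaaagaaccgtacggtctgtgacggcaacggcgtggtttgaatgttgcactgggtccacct
Mrpl46 (chr7:78783040-78783339, minus strand): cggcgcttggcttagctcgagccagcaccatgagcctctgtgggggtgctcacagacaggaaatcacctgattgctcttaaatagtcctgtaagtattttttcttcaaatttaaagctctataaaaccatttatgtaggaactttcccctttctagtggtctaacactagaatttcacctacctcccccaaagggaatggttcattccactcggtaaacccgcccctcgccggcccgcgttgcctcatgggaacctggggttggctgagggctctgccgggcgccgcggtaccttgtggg
Mrps11 (chr7:78782881-78783180, plus strand): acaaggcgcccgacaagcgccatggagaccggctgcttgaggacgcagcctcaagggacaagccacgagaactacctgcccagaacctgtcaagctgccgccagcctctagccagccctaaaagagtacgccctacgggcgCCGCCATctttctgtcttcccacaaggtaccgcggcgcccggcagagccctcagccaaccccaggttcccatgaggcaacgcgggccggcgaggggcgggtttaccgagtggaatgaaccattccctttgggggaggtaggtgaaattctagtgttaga

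The 2 members with the largest rises, Mrps24 and Mrpl55, held none of these letters and 24 CpG each. The 2 with the largest falls, Mrps9 and Mrpl30, held NRF-1 letters, 1 match in Mrps9 with 14 CpG and 2 in Mrpl30 with 23 CpG. Mrpl46 and Mrps11 are transcribed away from each other, and their windows share 141 bases. Neither was called: Mrpl46, a mitochondria-specific large-subunit protein, differed by -0.02, and Mrps11, a small-subunit protein with a bacterial counterpart, by -0.19.

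Of the regulators of nuclear genes for mitochondria, 8 were tested, with 0 higher and 4 lower, where 30.0% and 29.7% of all genes were higher and lower. Nrf1, which encodes NRF-1, had levels of 0.96, 0.90 and 0.87 in TKO cells, against 1.68, 1.68 and 1.70 in WT cells, a difference of -0.78. Every TKO array was below every WT array. Pprc1, a coactivator, and Gabpb1, a subunit of GABP, differed by -0.27 and -0.20.

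Mitochondrial ribosomal proteins with other names also moved in both directions. Of 6 tested, 3 were higher and 2 lower (83.3% called, against 59.7% of all genes). Gadd45gip1 was higher by 0.52 although it lies on chromosome 8, with levels of 4.69, 4.75 and 4.75 in TKO cells, against 4.18, 4.22 and 4.23 in WT cells. Ict1, a peptidyl-tRNA hydrolase built into the large subunit and encoded on chromosome 11, was higher by 0.49. Aurkaip1 was higher by 0.21. Ptcd3, an RNA-binding protein of the small subunit, and Dap3, its GTP-binding protein, differed by -0.19 and -0.11 and were called lower, and Chchd1 was not called at -0.01.

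Genes that build and serve the mitochondrial ribosome were taken from lists of its assembly and translation factors. Of 24 tested genes for assembly and modification of ribosomal RNA, 8 were higher and 7 lower (62.5% called, against 59.7% of all genes). The largest rises were Mettl17 (1.79), an assembly factor, Mrm1 (0.98), a methyltransferase of the ribosomal RNA, and Eral1 (0.70), a chaperone of the small subunit's RNA, and the last 2 of these lie on chromosome 11. The largest falls were Mpv17l2 (-0.92, on chromosome 8), Mterfd2 (-0.52, on chromosome 1) and Mettl15 (-0.35).

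Of 18 translation factors 2 were higher and 5 lower, or 38.9% called against 59.7% of all genes. Qrsl1, a subunit of the enzyme that makes glutaminyl-tRNA in mitochondria, encoded on chromosome 10, was higher by 1.32 and Mtfmt, which formylates the initiator tRNA, by 0.57. Pet112, another subunit of the same enzyme as Qrsl1, differed by -0.69, Pdf, a peptide deformylase encoded on chromosome 8, by -0.54 and Mtrf1, a release factor, by -0.40.

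Of 17 mitochondrial aminoacyl-tRNA synthetases 4 were higher and 6 lower (58.8% called, against 59.7% of all genes). Lars2 (1.37) and Sars2 (0.39) were among the rises, and the falls were led by Cars2 (-1.26, on chromosome 8), Wars2 (-0.83) and Rars2 (-0.53). Of 12 genes for transcription and upkeep of mitochondrial DNA 4 were higher and 5 lower (75% called, against 59.7% of all genes). The rises were led by Mgme1 (1.84), a nuclease, Tefm (1.09, on chromosome 11), an elongation factor, and the helicase gene Peo1 (0.47). The falls were led by the polymerase gene Polg (-0.88), Top1mt (-0.50) and Mterfd3 (-0.46, on chromosome 10).

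The messages that the mitochondrial ribosome translates were measured by probes for 12 genes of mitochondrial DNA. COX1 and ND6 were higher by 0.47 and 0.50, COX3 and ATP6 were lower at -0.22 and -0.21, and 8 were not called (33.3% called, against 59.7% of all genes). COX1 had levels of 8.57, 8.67 and 8.62 in TKO cells, against 8.07, 8.29 and 8.09 in WT cells, and ND6 had 2.82, 2.75 and 2.66 in TKO cells, against 2.24, 2.14 and 2.35 in WT cells. The groups did not overlap in either gene.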

How the data were processed

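Per the file headers, the deposited scanner files hold the processed signal, mean signal and local background of each spot as intensity values. They came from Agilent Feature Extraction (the submitters' processing notes give version 11.5.1.1). Background subtraction and detrending within the array had been applied to the processed signal. Spot flags, deposited in the same files, mark with 0 or 1 whether a spot was an outlier or bright enough, and are another unit. The authors also deposited a table of log2 values, with scale and centring unstated. Each of its columns ran as the log2 processed signal minus a constant, with a 75th percentile of 0, and column medians of -3.9, -3.74 and -3.82 for TKO and -3.97, -3.97 and -4.03 for WT arrays.

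Control spots and outlier spots were left out, spots of a probe were averaged, and each array's 75th percentile of log2 signal was subtracted. Probes well above background on at least 3 of 6 arrays were kept (30728 of 55681), and the brightest kept probe stood for a gene. The comparison of TKO with WT used lmFit and eBayes of limma 3.58.1 under R 4.3.3, two-sided, with Benjamini-Hochberg adjustment over 21558 genes. The procedure was tested on simulated data. The share of spots well above background was 51.9% to 58.5%, 0 were saturated, and the number of arrays limits the precision. TKO replicates 2 and 3, which lay in the second row, had the lowest shares, 51.9% and 52.2%. Their negative controls had spreads of 14.11 and 15.12, against 7.231 to 8.948 on the other arrays. What part this has in the differences of dim probes was not tested. All arrays shared 1 slide and 1 scan.

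Members and gene lists were chosen with earlier results of these data known. Genes named were the 8 largest rises and falls of the large subunit and 5 of the small subunit among called members with groups apart, members on chromosomes 1, 8, 10 and 11, members whose probes differed in direction, up to 3 higher and 3 lower genes of each list, and mitochondrial ribosomal proteins with other names. Further members are listed by name to account for all of them, and Mrps7 and Mrps23 were added to the probe comparison after their values were seen. Alternatives were another background correction, median centring, quantile normalization, other filters, the mean over probes and the deposited table. Others were replicate and array-row blocks, the first array row alone, and leaving out each array. The array-row block and the first row alone give the same differences, so they are not independent alternatives. Symbols follow the array design, so some are outdated. Exon and intron annotation of the probes was not used here. Ppargc1a, Fastkd2 and Lum did not pass the filter. One gene that the naming rule selects is not reported here.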

Additional observations from a re-analysis of the deposited data

How the results depend on the processing

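Centring arrays on their medians moved the median of all genes to -0.21, from which the members' values are then read: 27 large-subunit genes were lower and 4 small-subunit genes higher, and the medians became -0.23 (large subunit), -0.28 (small subunit), 0.34 (chromosome 11), -0.60 (chromosome 8) and -0.28 (remaining chromosomes). In the first array row alone 7 large-subunit and 5 small-subunit genes were lower. With array row as a block, and in that row alone, the medians were -0.34 on chromosome 8, -0.045 on the remaining chromosomes and -0.020 in the small subunit. The labels do not say whether replicate numbers pair the dishes. Deviations of same-numbered arrays correlated at -0.069 to 0.0063 and those of other pairs at -0.044 to 0.064, which cannot settle it. The fit with a replicate block gave 6 lower small-subunit genes and 12 lower large-subunit genes, against 10 and 17 without it. It moved no other count of these by over 1.5 times. Over all genes that fit gave 5883 higher and 5734 lower, against 6463 and 6397 without it. The deposited table gave medians of -0.058 (large subunit), 0.51 (chromosome 11), -0.10 (remaining chromosomes) and -0.10 (small subunit). Quantile normalization gave -0.016 (large subunit), 0.57 (chromosome 11) and -0.043 (remaining chromosomes), normexp gave -0.061 in the large subunit, and the mean over probes gave -0.033 on the remaining chromosomes and -0.033 in the small subunit. Leaving out 1 array gave medians of 0.51 to 0.55 on chromosome 11, -0.074 to -0.052 on the remaining chromosomes and -0.097 to -0.035 in the small subunit.

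With the mean over probes the sign turned for Mrpl39 (0.41), Mrpl41 (0.10), Mrpl47 (0.32), Mrpl49 (0.058), Mrpl9 (-0.50) and Mrps25 (0.11). Values near 0 also changed sign: Mrpl47 under quantile normalization (0.0061), Mrps14 in the deposited table (-0.02), under median centring (-0.20) and under normexp (-0.014), and the Mrps14 probe at -0.07 with array row as a block and in the first row (0.042) and under normexp (0.026). With 1 array left out, Mrps14 ran from -0.0098 to 0.0121, that probe from -0.23 to 0.15, the Mrpl47 probe at -0.15 from -0.29 to 0.038 and Mrpl42 from -0.060 to 0.0068. The causes were not tested. Mrps24 and Mrps9 were called in the same direction under all 16 alternatives, at 0.996 (median centring) to 1.24 and -1.54 to -1.31. Each was measured by 1 probe, which none of these alternatives can check.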
